A study of Bos taurus with 19 samples.

Results

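The RNA level of 4 genes of the fibrous matrix was followed in the longissimus dorsi, the large muscle along the back, of 19 bull calves. The genes were COL1A1 (ENSBTAG00000013103), COL1A2 (ENSBTAG00000013472), COL3A1 (ENSBTAG00000021466) and SPARC (ENSBTAG00000014835). They were taken by Ensembl identifier from the 27570 genes of the deposited tables, where all 4 were present. The choice names the identifiers and sets no limit on any measured value. The calves were 1 month old and came from Brangus-Angus crossbred cows. The dams of 9 calves received the control diet, limpograss hay with molasses and urea. The dams of the other 10 received that diet plus 3.7 g of methionine, protected from the rumen, for each cow daily. Each diet was fed from day -30 to day 90 around the start of the breeding season, so the calves were exposed before birth and the muscle was sampled long after the diet had ended. Each calf gave 1 library.

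Type I collagen is the main load-bearing fibre of the connective tissue that wraps muscle fibres and bundles. Its molecule is a triple helix built from the chains encoded by COL1A1 and COL1A2. Type III collagen, encoded by COL3A1, forms finer fibres, is common in young tissue and is assembled together with type I. SPARC, also called osteonectin, is a secreted protein that binds collagen and helps its fibres to assemble, and it is also made by cells other than fibroblasts. In muscle the fibrillar collagens are made largely by fibroblasts and related interstitial cells, and the collagen content of a muscle bears on the toughness of meat. In whole muscle, fewer cells of a type and less RNA per cell cannot be told apart.

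Libraries held 49077786 to 83994792 counts on the control diet and 52672118 to 88539777 on the methionine diet. Depending on the calf, 34.5% to 43.7% of these belonged to the 25 most abundant genes, none of which was one of the 4. The number of genes detected was 15055 at the lowest and 16863 at the highest. Every calf had at least 3568 counts for each of the 4 genes, so counting error was small beside the spread between calves.

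All 4 genes were abundant. The deposited count per calf was between 3568 and 22154 for COL1A1, between 4134 and 22509 for COL1A2, between 13571 and 53478 for COL3A1, and between 22878 and 73191 for SPARC. By mean count among the 27570 genes, SPARC ranked 130, COL3A1 247, COL1A2 786 and COL1A1 862. These ranks are of counts, which grow with transcript length, and no transcript lengths were used here, so the genes are not ordered by abundance per molecule. Levels are given below as CPM, counts-per-million of the calf's library after TMM (trimmed mean of M-values) scaling.

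COL1A1, the gene of the α1 chain of type I collagen, had its lowest level in the control calves at 68.6 CPM, its median at 107 CPM and its highest at 354 CPM. In the methionine calves the lowest was 61.2 CPM, the median 103 CPM and the highest 191 CPM. The diets overlapped over almost their whole range, and control calf 6157 stood alone at the top, with the next control calf at 159 CPM. The mean was 135 ± 89.1 CPM (SD, n = 9) on the control diet and 113 ± 45.6 CPM (SD, n = 10) on the methionine diet.

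COL1A2, the gene of the α2 chain, ranged from 77.8 to 360 CPM with a median of 117 CPM in the control calves. On the methionine diet its range was from 72.6 to 206 CPM with a median of 107 CPM. The same 2 calves as for COL1A1 held the top of each diet, control calf 6157 and methionine calf 6153. Its mean was 149 ± 86.2 CPM (SD, n = 9) on the control diet and 122 ± 46.2 CPM (SD, n = 10) on the methionine diet.

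COL3A1, the only chain of type III collagen, ranged from 252 to 855 CPM with a median of 330 CPM in the control calves. On the methionine diet its range was from 230.0 to 501 CPM with a median of 307 CPM. Its mean was 412 ± 192 CPM (SD, n = 9) on the control diet and 334 ± 96.6 CPM (SD, n = 10) on the methionine diet, and the groups overlapped except for control calf 6157 above and 3 methionine calves just below the lowest control calf.

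SPARC ranged from 431 to 1142 CPM with a median of 722 CPM in the control calves. On the methionine diet its range was from 358 to 918 CPM with a median of 612 CPM. Its mean was 738 ± 195 CPM (SD, n = 9) on the control diet and 617 ± 161 CPM (SD, n = 10) on the methionine diet. Control calf 6157 was again the highest and methionine calf 6152 the lowest of all 19, and the other calves of both diets lay between 431 and 918 CPM.

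**Figure D1:**
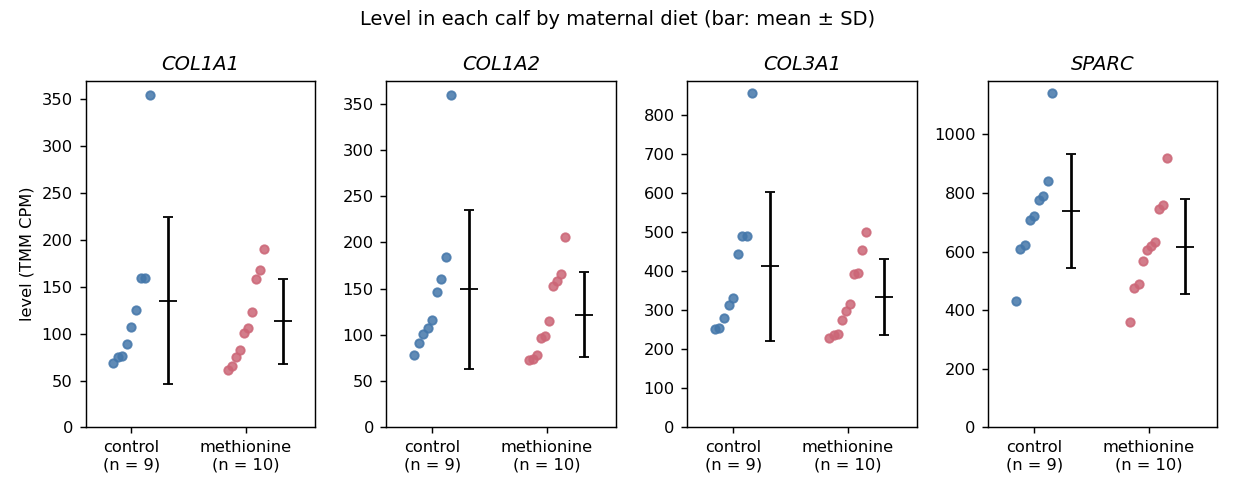
Level of each gene in TMM CPM (vertical axes from 0) in the 9 control and 10 methionine calves, 1 point per calf, with the mean ± SD beside each group. The diets overlap for every gene, and 1 control calf reaches 354 CPM for COL1A1, 360 CPM for COL1A2 and 855 CPM for COL3A1.

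Whether the maternal diet shifted these genes was asked with edgeR's quasi-likelihood test over 14543 genes, with Benjamini-Hochberg adjustment. None of the 4 genes passed an adjusted p of 0.05, and neither did any other gene, so the share of genes called was 0.0%. At an unadjusted p under 0.05, 711 genes passed, 401 higher and 310 lower in the methionine calves, which is 4.89% of the genes tested. None of the 4 genes was among them. DESeq2 called 7 genes and limma-trend 2 at an adjusted p under 0.05, and none of the 4 genes was called by either.

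The fitted level of all 4 genes was lower in the methionine calves, by amounts within the spread between calves. For COL1A1 the level on the methionine diet was 0.839 times that on the control diet, with a 95% interval from 0.556 to 1.26 (log2 fold change -0.25, standard error 0.286, adjusted p = 0.998). For COL1A2 it was 0.815 times, with an interval from 0.562 to 1.18 (log2 fold change -0.29, standard error 0.259, adjusted p = 0.998). For COL3A1 it was 0.809 times, with an interval from 0.596 to 1.10 (log2 fold change -0.30, standard error 0.214, adjusted p = 0.998). SPARC had the narrowest interval, from 0.661 to 1.06, around 0.836 times the control level (log2 fold change -0.26, standard error 0.164, adjusted p = 0.998). The intervals leave room for a level as low as 0.556 times that on the control diet for COL1A1 and 0.661 times for SPARC. A p that missed the threshold therefore does not show that the diets were alike.

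The sign for COL1A1 rested on 1 calf. Without control calf 6157 its log2 fold change was 0.07, that of COL1A2 -0.02, that of COL3A1 -0.10 and that of SPARC -0.16. Because the 4 genes rose and fell together from calf to calf, as described next, their common sign is not 4 separate observations. With single calves left out, the unadjusted edgeR p of SPARC was under 0.05 in 2 cases, at 0.0447 without control calf 6133 (adjusted p = 0.986) and at 0.0445 without methionine calf 6153 (adjusted p = 0.983). An exact permutation test over all 92378 divisions of the 19 calves into 9 and 10, applied to the mean log2 CPM of each gene, gave unadjusted two-sided p-values of 0.618 for COL1A1, 0.427 for COL1A2, 0.302 for COL3A1 and 0.163 for SPARC.

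As measured, the spread between calves was widest for COL1A1 and narrowest for SPARC. Within diets, the SD of the log2 CPM was 0.67 for COL1A1, 0.60 for COL1A2, 0.50 for COL3A1 and 0.39 for SPARC, against a median of 0.40 over all genes tested. The SD of COL1A1 was above that of 72.6% of the genes, and that of SPARC above 47.9%. The genes tested include ones with few counts, whose SD also holds counting error. By mean CPM the 4 genes lay above 93.9% to 99.1% of the genes. No comparison was limited to genes of like abundance. Between the highest and the lowest of the 19 calves the level differed 5.78-fold for COL1A1, 4.96-fold for COL1A2, 3.72-fold for COL3A1 and 3.19-fold for SPARC.

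A permutation test of equal spread in the same calves was run on each of the 6 pairs of genes, with p-values adjusted over the 6 pairs. COL1A1 varied more than COL3A1 (permutation p = 0.00171, adjusted 0.00513) and more than SPARC (permutation p = 0.00168, adjusted 0.00513). COL1A2 also varied more than COL3A1 (permutation p = 0.00748, adjusted 0.0112) and more than SPARC (permutation p = 0.00642, adjusted 0.0112). The difference was not past the threshold between the chains of type I collagen (permutation p = 0.125) or between COL3A1 and SPARC (permutation p = 0.106). Without methionine calf 6152 the unadjusted permutation p for COL3A1 against SPARC was 0.0295. Without control calf 6157 that for COL1A2 against SPARC was 0.0682. The other 3 differences kept an unadjusted permutation p under 0.05 with any single calf left out. Their highest values came without calf 6157, at 0.0151 for COL1A1 against COL3A1, 0.0297 for COL1A1 against SPARC and 0.0359 for COL1A2 against COL3A1. These values are not low enough to pass 0.05 when adjusted over the 6 pairs. No difference in spread therefore kept its adjusted call without that calf. When COL1A1 was higher by 1 on the log2 scale, COL1A2 was higher by 0.88, COL3A1 by 0.70 and SPARC by 0.44 on average over the 19 calves centred within diet.

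The spread was also compared between diets. The SD of log2 CPM on the methionine diet was 0.774 times that on the control diet for COL1A1, 0.811 times for COL1A2, 0.707 times for COL3A1 and 1.01 times for SPARC. None of these ratios passed the test of a difference from 1, with two-sided exact permutation p-values of 0.680, 0.737, 0.420 and 0.954. Without control calf 6157 all 4 ratios were above 1, from 1.01 for COL3A1 to 1.27 for SPARC, so the narrower spread of the collagens on the methionine diet rested on that calf.

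**Figure D2:**
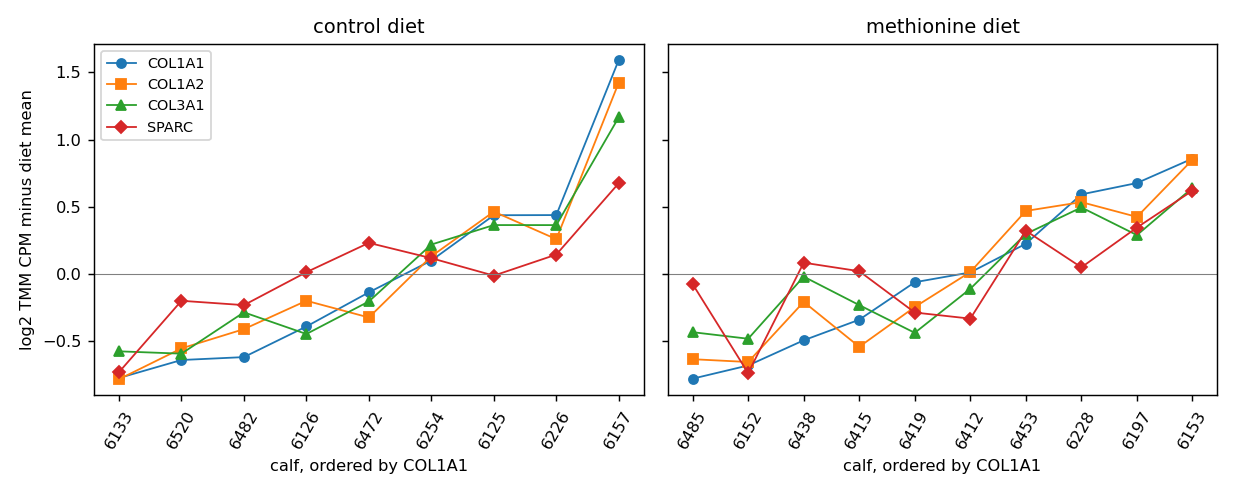
Log2 TMM CPM of the 4 genes minus the mean of the diet (vertical axis) in each calf, ordered along the horizontal axis by COL1A1, with control calves on the left and methionine calves on the right. The lines of the 3 collagen genes run close together, the SPARC line is flatter, and calves 6157 and 6153 are highest for all 4 genes in their diet.

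Within each diet the same calf was highest for all 4 genes, and the order below it was similar but looser. Counting from the highest level, control calf 6157 had rank 1 of 9 and control calf 6254 rank 4 for all 4 genes, and control calf 6133 had rank 9 for COL1A1, COL1A2 and SPARC and rank 8 for COL3A1. Methionine calf 6153 had rank 1 of 10 for all 4 genes. Methionine calf 6152 had rank 10 for COL1A2, COL3A1 and SPARC and rank 9 for COL1A1. Methionine calf 6485 had rank 10 for COL1A1, 9 for COL1A2, 8 for COL3A1 and 7 for SPARC. Some calves had another place for SPARC than for the collagens. Control calf 6472 had rank 2 for SPARC but 5 or 6 for the collagens, and control calf 6125 had rank 6 for SPARC but 2 or 3 for the collagens. Methionine calf 6412 had rank 9 for SPARC but 5 or 6 for the collagens. Others moved among the collagens too, such as methionine calf 6438, with rank 8 for COL1A1, 6 for COL1A2 and 5 for COL3A1, and methionine calf 6419, with ranks 6, 7 and 9.

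Coexpression within a diet was measured, as in the study's networks, by Pearson's correlation across calves, here on log2 TMM CPM. There were 12 correlations, 6 pairs of genes in each diet, with p-values from permutations of the calves (exact for the 9 control calves, 100000 resamples for the 10 methionine calves) and adjusted over the 12. All 12 were positive, with a mean of 0.903 for the control diet and 0.839 for the methionine diet, and all 12 had an adjusted permutation p under 0.05, the highest being 0.0278. The share of other gene pairs that would pass this test was not counted. Depending on the member, 126 to 273 of 14542 genes had an r above 0.8 with it in the control calves. In the methionine calves 68 to 136 did.

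The chains of type I collagen gave the tightest pair in the control calves, by a small margin that was not tested. Without control calf 6157 the r of COL1A1 in the control calves was 0.955 with COL1A2 and 0.957 with COL3A1. COL1A1 and COL1A2 correlated at 0.984 in the control calves (exact permutation p = 3.31e-05, adjusted 0.000360) and at 0.949 in the methionine calves (permutation p = 0.000150, adjusted 0.000360). COL1A2 and COL3A1 correlated at 0.973 in the control calves (exact permutation p = 0.000130, adjusted 0.000360) and at 0.952 in the methionine calves (permutation p = 0.000120, adjusted 0.000360). COL1A1 and COL3A1 correlated at 0.981 (exact permutation p = 6.61e-05, adjusted 0.000360) and 0.883 (permutation p = 0.00144, adjusted 0.00288). Spearman's rho for these 6 correlations was between 0.818 and 0.967, with permutation p-values from 9.00e-05 to 0.00567 and adjusted values of at most 0.00972. Without the 2 calves farthest from the median of the first gene of the pair, r was still between 0.808 and 0.947, with permutation p-values of at most 0.0181, so these relations did not rest on the extreme calves.

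By Pearson's r within each diet, the collagens were less tightly tied to SPARC than to each other, a difference that was not tested. COL1A1 and SPARC correlated at 0.848 in the control calves (exact permutation p = 0.00431, adjusted 0.00646) and at 0.687 in the methionine calves (permutation p = 0.0278, adjusted 0.0278). COL1A2 and SPARC correlated at 0.837 (exact permutation p = 0.00647, adjusted 0.00863) and 0.749 (permutation p = 0.0122, adjusted 0.0134). COL3A1 and SPARC correlated at 0.798 (exact permutation p = 0.0108, adjusted 0.0130) and 0.812 (permutation p = 0.00343, adjusted 0.00588). Spearman's rho was between 0.683 and 0.842, with permutation p-values from 0.00363 to 0.0503 and adjusted values of at most 0.0503. That highest value belonged to COL3A1 with SPARC in the control calves. In the methionine calves the rho of COL3A1 with SPARC, 0.842, was above the 0.818 of COL1A1 with COL3A1, so by rank that order did not hold for every pair.

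Leaving out the 2 calves farthest from the median of the collagen gene changed the picture for SPARC. In the control calves r fell to 0.650 for COL1A1 (exact permutation p = 0.126) and to 0.652 for COL3A1 (exact permutation p = 0.112), while COL1A2 kept 0.791 (exact permutation p = 0.0294). In the methionine calves r was 0.636 for COL1A1 (exact permutation p = 0.0901) and 0.665 for COL1A2 (exact permutation p = 0.0723), and COL3A1 kept 0.812 (exact permutation p = 0.0137). The 4 relations that missed the threshold here were tested on fewer calves, and their r was lower by more in the control calves than in the methionine calves. The calves left out include calf 6157 in the control group and calf 6153 in the methionine group. Other sets of 2 calves were not left out for comparison. Whether these 4 calls were lost for want of the extreme calves or for want of calves in number therefore cannot be told. Without calf 6157 the correlations of the control calves were 0.708 for COL1A1, 0.684 for COL1A2 and 0.607 for COL3A1 with SPARC, and without calf 6153 those of the methionine calves were 0.559, 0.638 and 0.728.

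**Figure D3:**
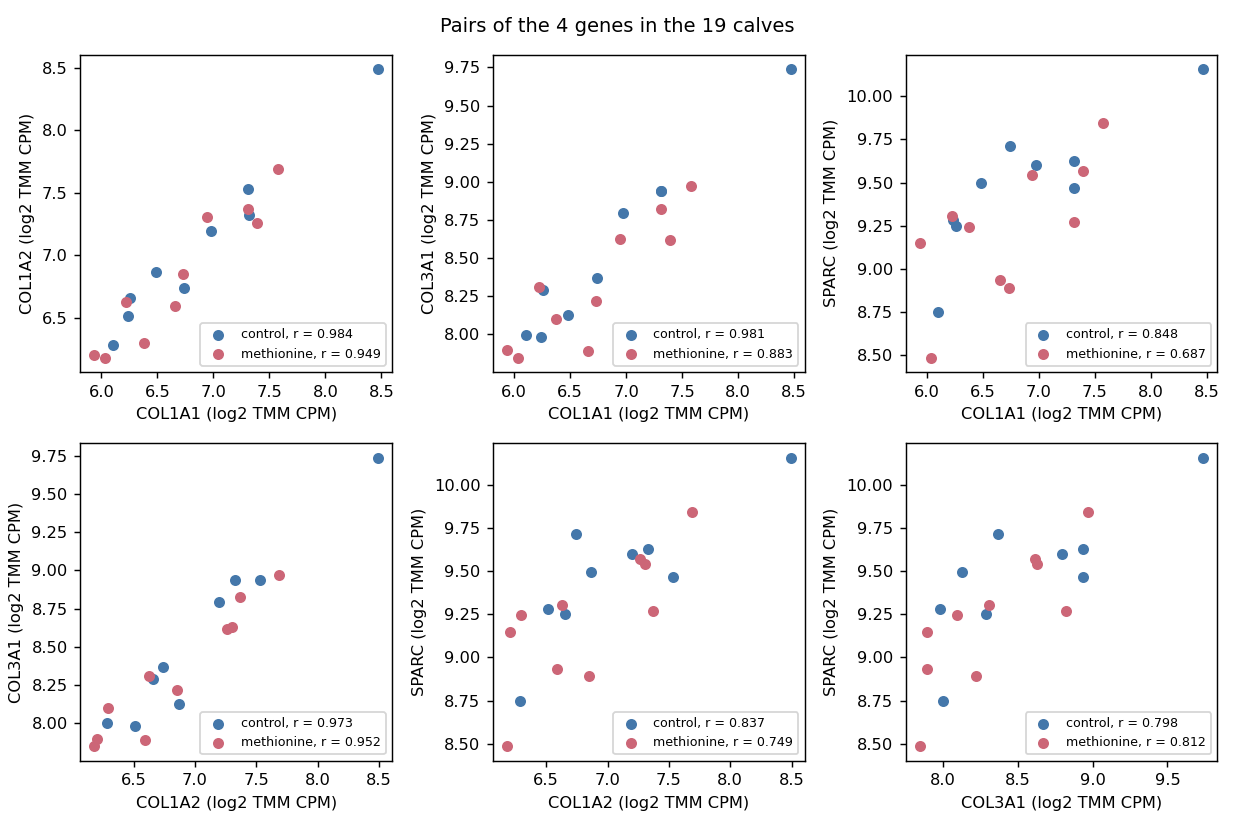
Each panel plots 1 pair of genes in log2 TMM CPM, 1 point per calf, with Pearson's r for each diet in the panel. The 3 collagen pairs lie close to a line in both diets with r from 0.883 to 0.984, and the 3 SPARC panels scatter more, with r from 0.687 to 0.848.

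Whether coexpression differed between the diets was tested for each pair by an exact permutation of the diet over the calves. The correlation in the methionine calves minus that in the control calves was below 0 for 5 of the 6 pairs, namely -0.161 for COL1A1 with SPARC, -0.0979 for COL1A1 with COL3A1, -0.0873 for COL1A2 with SPARC, -0.0351 for COL1A1 with COL1A2 and -0.0204 for COL1A2 with COL3A1. For COL3A1 with SPARC it was 0.0141. No difference was past the threshold, and the smallest of the 6 two-sided exact permutation p-values was 0.188, for COL1A1 with COL3A1 (0.718 adjusted over the 6 pairs). Without control calf 6157, r in the control calves was 0.937 for COL1A2 with COL3A1, 0.684 for COL1A2 with SPARC and 0.607 for COL3A1 with SPARC. Each was then below the r of the methionine calves. The sign for COL1A2 with COL3A1 and with SPARC therefore rested on that calf. The pairs with COL1A1 kept a lower r in the methionine calves. The mean r of the control calves, 0.903, had a jackknife standard error of 0.0963 and that of the methionine calves, 0.839, one of 0.0842, so the difference between the means lay within these errors. Without control calf 6157 the mean r of the control calves was 0.808, below that of the methionine calves. Without methionine calf 6153 the mean r of the methionine calves was 0.770.

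**Figure D4:**
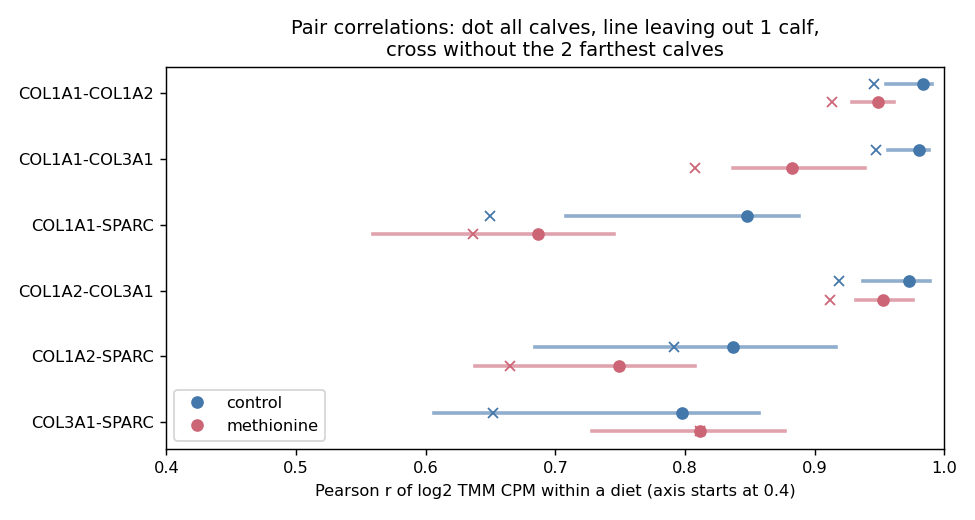
Pearson's r of each pair within each diet (horizontal axis from 0.4), with a dot for all calves, a line for the range when 1 calf is left out and a cross for the value without the 2 calves farthest from the median of the first gene. The dots of the 3 pairs without SPARC are at 0.883 or above, those with SPARC are lower, and the ranges of the 2 diets overlap for every pair except COL1A1 with COL3A1.

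The ratio of the genes within a calf does not depend on the size of its library, so it was compared between diets as well. The count of COL1A1 per count of COL1A2 was 0.880 ± 0.0927 (SD, n = 9) for control dams and 0.927 ± 0.117 (SD, n = 10) for methionine dams, and over all calves it lay between 0.754 and 1.10. This was the steadiest of the 6 ratios, with a 1.45-fold range, close to the 1.47-fold range of COL1A2 over COL3A1. The count of COL1A1 per count of COL3A1, type I against type III, was 0.311 ± 0.0479 (SD, n = 9) and 0.333 ± 0.0662 (SD, n = 10). The count of COL1A1 per count of SPARC had the widest range, 2.87-fold, from 0.108 in methionine calf 6485 to 0.310 in control calf 6157. None of the 6 log2 ratios passed a test between diets, with two-sided exact permutation p-values from 0.371 to 0.920, each 0.920 when adjusted over the 6 ratios. The ratios compare calves for the same 2 genes and do not give the molar ratio of the chains, since counts are not per length.

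Among all genes tested, the collagens were the closest partners of each other. Over the 19 calves, centred within diet, COL1A2 ranked first of 14542 genes by correlation with COL1A1 (r = 0.969) and COL3A1 second (r = 0.942). For COL1A2 the first was COL1A1 and the second COL3A1 (r = 0.963), and for COL3A1 the first was COL1A2 and the second COL1A1. Within single diets these partners ranked between 1 and 3 in the control calves and between 1 and 19 in the methionine calves, the lowest being COL1A1 as a partner of COL3A1.

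SPARC was close to the collagens but not among their nearest genes. It ranked 35 of 14542 for COL1A1 (r = 0.765), 30 for COL1A2 (r = 0.790) and 29 for COL3A1 (r = 0.791). Seen from SPARC, COL3A1 ranked 70, COL1A2 71 and COL1A1 105. Without control calf 6157 SPARC ranked 96 for COL1A1, 75 for COL1A2 and 53 for COL3A1, while the collagens still ranked between 1 and 3 for each other. Seen from SPARC without that calf, COL3A1 ranked 159, COL1A2 163 and COL1A1 221. Within single diets the ranks were lower. In the control calves SPARC ranked 74 for COL1A1, 79 for COL1A2 and 133 for COL3A1, and in the methionine calves 271, 227 and 89. Seen from SPARC, the collagens ranked between 125 and 286 in the control calves and between 112 and 448 in the methionine calves.

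A correlation above 0.8 over the 19 calves was rare. With COL1A1, 15 genes passed it, 0.103% of those tested, and 2 of the 3 partners, both collagens, were among them. With COL1A2 and with COL3A1, 22 genes passed, 0.151% in each case, again with both other collagens and without SPARC. With SPARC, 60 genes passed, 0.413%, and none of the 3 collagens did, though COL1A2 and COL3A1 lay just under the limit at 0.790 and 0.791, and SPARC passed it with both when control calf 6125 was left out. Leaving out single calves moved these counts to between 10 and 26 for COL1A1, 19 and 44 for COL1A2, 15 and 40 for COL3A1, and 30 and 83 for SPARC, the lowest counts coming without control calf 6133 for COL1A1 and SPARC and without methionine calf 6153 for COL1A2 and COL3A1. The highest counts came without control calf 6126 for COL1A1 and COL3A1, control calf 6472 for COL1A2 and methionine calf 6412 for SPARC.

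Of the 14539 other genes, 12 had a mean correlation with the 4 genes above 0.8, and 3 had one above 0.8 with each of them. The median over genes was -0.02. None reached 0.870, the mean over the 6 pairs of the 4 genes themselves. That mean was raised by the 3 collagen pairs, with r from 0.942 to 0.969. The correlations of SPARC with the 3 collagens were 0.765 to 0.791, below the mean of each of the 12 genes. The closest was ENSBTAG00000001444, with a mean of 0.853 (0.817 with COL1A1, 0.853 with COL1A2, 0.889 with COL3A1 and 0.855 with SPARC). It measured 28.3 ± 11.9 CPM (SD, n = 9) under the control diet and 29.2 ± 12.6 CPM (SD, n = 10) under methionine. At the other end, ENSBTAG00000008118 had a mean of -0.82. Both identifiers were chosen after their values were seen, and the tables used here do not pair them with a symbol. The likeness is described over 19 calves that share their library scaling, and it carries no test.

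**Figure D5:**
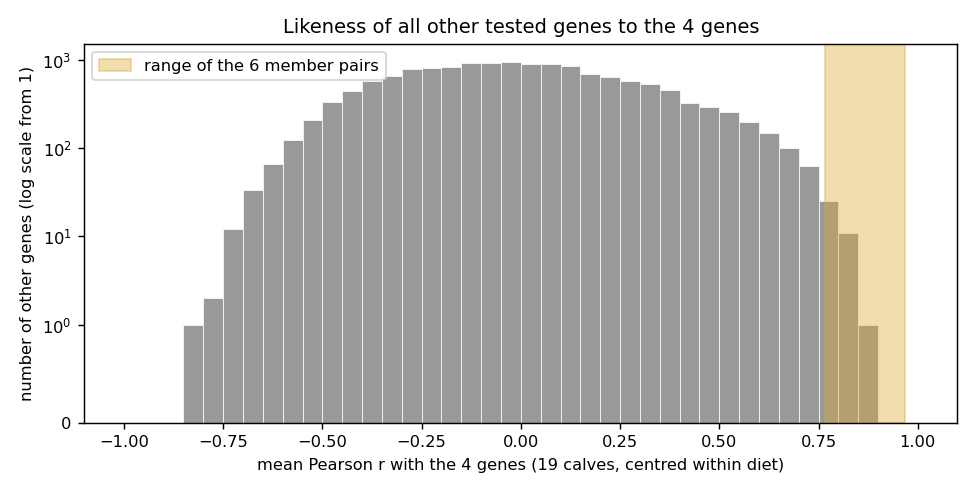
Number of the other tested genes (vertical axis, logarithmic above 1) by their mean Pearson r with the 4 genes over the 19 calves centred within diet (horizontal axis). The bulk lies around -0.02, 12 genes lie above 0.8, and the shaded band marks the range of the 6 pairs of the 4 genes, from 0.765 to 0.969.

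One library measure moved with the genes. Calves in which the 25 most abundant genes held a larger share of the counts had lower collagen levels. Over the 19 calves centred within diet, the correlation with that share was -0.61 for COL1A1 (permutation p = 0.00577), -0.61 for COL1A2 (permutation p = 0.00559), -0.64 for COL3A1 (permutation p = 0.00283) and -0.43 for SPARC (permutation p = 0.0700). Adjusted over 12 relations with 3 library measures, the permutation p was 0.0231 for each collagen and 0.210 for SPARC. Spearman's rho was between -0.55 and -0.48, with permutation p-values from 0.0156 to 0.0392 and 0.0940 when adjusted, so the rank relations did not pass. Without the 2 calves with the most extreme shares r was between -0.63 and -0.43. With single calves left out, the unadjusted permutation p of the collagens was at most 0.0287, and that of SPARC was 0.0178 without control calf 6133 and 0.221 without methionine calf 6153. How many of the other genes tested moved with the share as strongly was not counted. The relation is therefore not shown to be particular to the collagens.

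The relation held at nearly the same size, from -0.65 to -0.44, when libraries were scaled without those 25 genes. With the total count r was at most 0.158 and the permutation p at least 0.516. With the number of genes detected Pearson's r was at most 0.369 and the permutation p at least 0.120, while the rank relation of COL1A1 (rho 0.495, permutation p = 0.0323, adjusted 0.0940) was about as large as those with the share. With the share regressed out within each diet, the mean correlation among the 4 genes was 0.883 for the control diet and 0.774 for the methionine diet, and 11 of the 12 correlations kept an adjusted permutation p under 0.05. The one that did not was COL1A1 with SPARC in the methionine calves, at 0.584 (adjusted permutation p = 0.0752). The differences in correlation between diets then had exact permutation p-values down to 0.0795 for COL1A1 with COL3A1 and 0.0945 for COL1A1 with COL1A2 (both 0.284 adjusted over the 6 pairs). With the share as a covariate in edgeR, the log2 fold changes between diets were -0.26 for COL1A1, -0.33 for COL1A2, -0.31 for COL3A1 and -0.27 for SPARC, with unadjusted p-values of 0.256, 0.121, 0.0772 and 0.0836 and an adjusted p of 0.982 for each.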

How the data were processed

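RNA of longissimus dorsi from 19 bull calves, 1 library each, was sequenced by the study as poly(A) paired-end libraries. Per the labels and the study's methods, the authors trimmed reads with Trim Galore 0.4.4, mapped them with HISAT2 2.1.0 to ARS-UCD1.2 and counted them per gene with htseq-count. The deposited values are raw counts per Ensembl gene. Whether mates were counted singly is not given in the sources used here, and the totals of most calves exceed the read pairs that the study describes per sample, so a count may not stand for 1 read pair. Diets came from the sample labels, calves are named by their label number, and the labels give no batch.

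The study's filter on low counts (at most 5 counts in 9 or more calves) left 14543 genes, more than the study kept, and the reason was not found. The 25 most abundant genes stayed in. Counts were scaled by TMM and tested with edgeR 4.0.16 (R 4.3.3), with DESeq2 1.42.0 and limma 3.58.1 as alternatives. Standard errors were taken from the fold change and the F statistic. Log2 CPM used a prior count of 2. Correlations, permutations and plots used Python 3.11.15, numpy 2.4.6, scipy 1.17.1, pandas 2.3.3 and matplotlib 3.10.9. On simulated counts for 14543 genes in this comparison, edgeR found 65 of 100 genes given 2-fold changes, 85 of 100 given 4-fold changes, and made 4 false calls.

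The 4 genes and the lists were chosen with earlier results of these data known. Comparisons of ratios, of spread between genes and with library measures were added after the values were seen. Named genes were the 4, the most extreme gene by p on either side, and genes most like the 4 where a symbol was known, which gave none. The genes most and least like the 4 are named outside this rule, by identifier, after their values were seen. The reference table paired 0 of the identifiers with a symbol, so 148 matrix and cell type marker genes fixed by symbol, the check of the tissue by its markers, and sequences were not analysed here.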

Additional observations from a re-analysis of the deposited data

Results flagged for a closer look

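In the control calves, 1 calf lay far from the others on the CPM scale for 3 of the 4 genes. Calf 6157 had 354 CPM of COL1A1 against 159 CPM in the next calf, a gap of 0.683 of the range of the group. For COL1A2 it had 360 CPM against 185 CPM, a gap of 0.621, and for COL3A1 855 CPM against 490.1 CPM, a gap of 0.605. Its SPARC level of 1142 CPM against 839 CPM left a gap of 0.426, and on the log2 scale the gaps were 0.488 for COL1A1, 0.435 for COL1A2 and 0.456 for COL3A1, none of which met the limit. In all, 36 groups of 9 or 10 calves were examined, with a limit of 0.493 for 9 calves and 0.466 for 10. For independent groups of normally distributed values, chance alone flags about 1 in 20, or 1.8. The groups hold the same genes on the CPM and log2 scales and in ratios, so 1.8 is only a rough guide. The 3 flags come from genes that rise and fall together and from 1 calf, so they are not separate. The total count of calf 6157 was 55393137, inside the range of the other calves. The 25 most abundant genes held 35.2% of its counts, the lowest share but 2 among the 19 calves, and its TMM factor of 1.13 was the highest of all 19. Low shares went with high collagen levels over the calves, and the part of the share in the level of this calf was not tested.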

How the results depend on the processing

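The exact permutation of mean log2 CPM and both adjustments for the share of the 25 most abundant genes were added after seeing the data. The log2 fold changes of COL1A2, COL3A1 and SPARC kept their sign and stayed short of the threshold in all 25 alternatives run on each. For COL1A1 the log2 fold change ranged from -0.37 (without 6153) to 0.0735 (without 6157) with calves left out in turn. The count of genes changed by diet, 0 by edgeR, was 7 with DESeq2, 2 with limma-trend and from 0 to 1 (without 6520) when calves were left out. The mean correlation of the methionine calves, 0.839, was 0.924 when log2 counts were left unscaled. The adjusted p rose above 0.05 for COL1A1 with SPARC in the methionine calves without 6152, 6153 or 6197, for COL1A2 with SPARC without 6153 (methionine) or 6157 (control), and for COL3A1 with SPARC in the control calves without 6157 or by Spearman's rho. Neither the 6 differences in correlation nor the 4 in spread passed under any alternative. No shared replicate numbers link the diets, so there was no pairing to fit. Each of the 4 genes had at least 3568 counts in every calf.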

Other observations

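Among all genes, the smallest p by diet in each direction belonged to ENSBTAG00000011465, higher in the methionine calves (log2 fold change 0.88, adjusted p = 0.333 by edgeR's quasi-likelihood test), and ENSBTAG00000000899, lower in them (log2 fold change -0.94, adjusted p = 0.268 by the same test).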
